A study of Mus musculus with 6 samples.

Results

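Clotting is a cascade of proteases. *F3* encodes tissue factor, a cell-surface protein that binds factor VII and so starts clotting, and *Tfpi* encodes the inhibitor of this step. *F10* and *F5* encode factor X and its cofactor factor V, which together turn prothrombin, the product of *F2*, into thrombin. Thrombin cuts fibrinogen, a protein built of the chains encoded by *Fga*, *Fgb* and *Fgg*, so that it forms fibrin. It also cuts protease-activated receptors (PARs), G protein-coupled receptors that are switched on when a protease removes the end of the receptor and the new end binds the receptor itself. *F2r* encodes PAR1, a receptor of thrombin, and *F2rl1* encodes PAR2, which is cut by trypsin and related proteases and is known from the gut epithelium. Most soluble clotting factors are made in the liver, whereas tissue factor is made by many epithelia and by cells around vessels.

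These 10 genes, out of 23366 in the count tables, were chosen by name, with results of the comparison between mutant and wild type libraries already known. Their differences between the groups are therefore given as a description, without p-values. The libraries came from EpCAM-positive epithelial cells of the small intestine at embryonic day 13.5, 500 sorted cells each, from embryos of the genotype Shh-cre-egfp:Tcf7l1 lox/lox (mutant, 3 libraries) and from wild type embryos (3 libraries), none of them treated. In the mutants the Cre recombinase made from the *Shh* locus inactivates the floxed *Tcf7l1*, the gene of a repressor of WNT targets, in cells that express *Shh* or descend from them. The labels name 3 biological replicates and do not say whether each came from a single embryo or from a pool.

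The 6 libraries held between 18216537 and 20397278 counts. *Tcf7l1* itself lay between 364 and 476 normalized counts in wild type and between 33.0 and 73.0 in mutant libraries. *Shh* fell as well (log2 fold change -1.28 ± 0.17 (SE), edgeR adjusted p = 6.1e-05), and no group carried Cre with an intact *Tcf7l1*. *Xist* was at 0 counts in all wild type libraries and had 229 to 424 in mutant libraries, while *Kdm5d*, *Uty*, *Eif2s3y* and *Ddx3y*, which lie on the Y chromosome, were at 0 in all mutant and above 0 in all wild type libraries. Effects of *Tcf7l1* loss, of the Cre allele and of sex cannot be told apart in these libraries. All 9 epithelial marker genes were above the filter on low counts, *Epcam* and *Krt8* among them. In mutant libraries 8 of them had lower values, and *Epcam* had higher ones (log2 fold change 0.25 ± 0.07 (SE)). By the criteria given below, 3 were called lower, against 5.83% of all tested genes. These were *Cdh1* (-0.57 ± 0.10), *Cdx2* (-0.68 ± 0.15) and *Krt18* (-0.54 ± 0.07). The summed normalized count of the 9 genes was 133797 to 140315 for wild type against 122582 to 126413 for mutants. The defining endothelial genes *Cdh5*, *Kdr*, *Tek* and *Emcn* and the leukocyte gene *Ptprc* were at 0 in all 6 libraries. Other genes of these lists were counted. The leukocyte gene *Cd68* had 41 to 97 counts and the endothelial gene *Esam* 8 to 28 in every library. The endothelial gene *Pecam1* had 20 counts in mutant 1, 3 in mutant 3 and 12 in wild type 3.

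Cleavage sites of thrombin and related proteases are shown first, for *F2r*, *F2rl1*, *Fga* and *Fgb*. Each stretch runs through the cleavage site of the encoded protein, 5′ to 3′ on the coding strand, and the capitals mark the codons that follow the cut. In the receptors these codons encode the tethered ligand, and in the fibrinogen chains they encode the knobs by which fibrin assembles. All of them lie in the second exon of their gene, in an annotation of mm9. They are found at chr13:96374834-96374878 (minus strand) for *F2r*, chr13:96284190-96284234 (minus strand) for *F2rl1*, chr3:82832477-82832512 (plus strand) for *Fga* and chr3:82850735-82850770 (minus strand) for *Fgb*.
F2r: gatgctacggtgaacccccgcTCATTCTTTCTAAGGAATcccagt
F2rl1: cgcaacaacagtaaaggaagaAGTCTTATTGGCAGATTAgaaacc
Fga: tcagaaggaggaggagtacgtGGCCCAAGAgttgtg
Fgb: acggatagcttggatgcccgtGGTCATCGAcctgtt

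The cut follows codon 41 of 430 in *F2r* and codon 38 of 399 in *F2rl1*, and 6 codons of the ligand are in capitals in each. In *Fga* and *Fgb* it follows codons 36 and 34, counted from the start codon, and 3 codons of the knob are in capitals. The receptor genes are neighbours: 76563 bases separate *F2rl1* (96281687 to 96295195) from *F2r* (96371759 to 96388414) on the minus strand of chromosome 13, and *F2rl2*, which encodes PAR3, lies 78393 bases beyond *F2r*. The fibrinogen genes form a cluster on chromosome 3, with *Fgg* from 82811781 to 82818975, *Fga* from 82830075 to 82838036 and *Fgb*, on the opposite strand, from 82846169 to 82853725. No near-identical copy of any of the 10 genes was found among other protein-coding transcripts. Only *F5* shares exon bases with another annotated gene, *Gm16548* on the opposite strand, over 3.53% of its exon bases.

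Of the 10 genes, 7 passed the filter on low counts and were tested, and *F2*, *Fga* and *Fgg* were not. A gene counts as called here if its edgeR adjusted p was below 0.01, its log2 fold change was 0.5 or more in size, and its normalized count averaged 50 or more. *F3* was called higher in the mutants, where 2.78% of the 12501 tested genes were called higher. *F2r*, *F2rl1* and *Fgb* were called lower, where 5.83% of the tested genes were called lower. *Tfpi*, *F5* and *F10* were not called. The mutant and wild type libraries did not overlap for these 4 called genes, as was the case for 20.8% of all tested genes with the mutants higher and 22.2% with the mutants lower. Since the genes were chosen with these calls known, nothing is read from the counts.

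**Figure D1:**
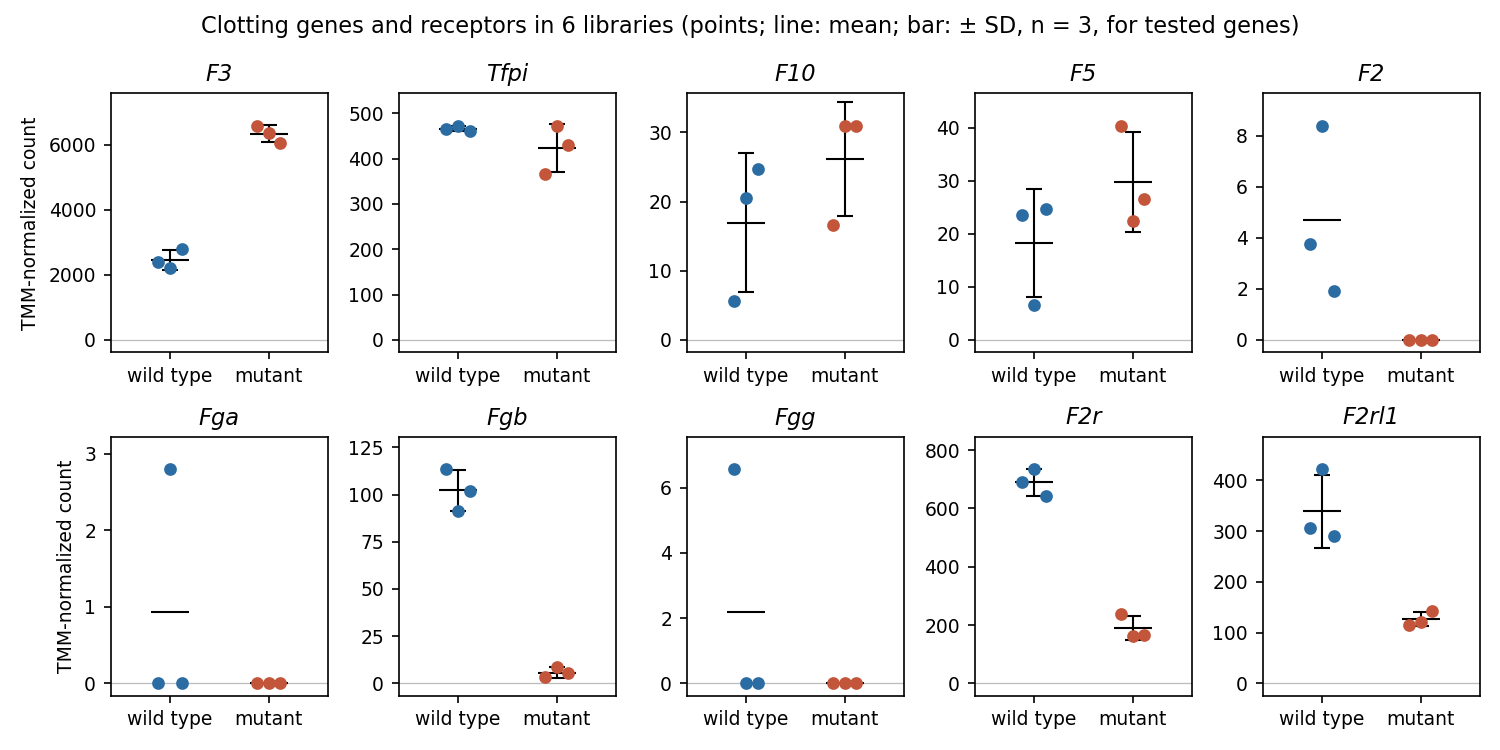
TMM-normalized counts (y axes, linear, each with its own range) of the 10 genes in 3 wild type (blue) and 3 mutant (red) libraries. Points are libraries, horizontal lines are means and bars are ± SD for the 7 tested genes. *F3* lies between 6061 and 6588 in the mutants, above all wild type libraries, and *F2r*, *F2rl1* and *Fgb* lie below all of them.

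*F3* had 2383, 2205 and 2790 normalized counts across wild type libraries 1 to 3, against 6588, 6361 and 6061 across mutant libraries 1 to 3. Every mutant library was above every wild type library. Mean ± SD was 2459 ± 300.2 for wild type and 6337 ± 265 for mutants (n = 3 each), a log2 fold change of 1.37 (SE 0.09), or 2.58-fold higher. *F3* is a plus-strand gene of chromosome 3 (121426455 to 121437970 in mm9). With single libraries omitted, its log2 fold change lay between 1.29 and 1.48, and it was 1.26 when libraries were scaled by size alone. *F3* held 55.6% to 64.3% of the normalized counts of the 10 genes in wild type libraries and 88.3% to 89.4% in mutant libraries.

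*Tfpi*, the inhibitor of the step that tissue factor starts, was not called. It had 466, 472 and 460.0 normalized counts across wild type libraries 1 to 3, against 367, 473 and 429 across mutant libraries 1 to 3, so that the groups overlapped. The log2 fold change was -0.14 (SE 0.14), and it kept its sign in all 13 alternative fits, between -0.25 and -0.05. The wild type libraries differed little (coefficient of variation 1.26%, against 12.6% in the mutants). Per length, the ratio of *F3* to *Tfpi* was 10.8, 9.89 and 12.8 across wild type libraries 1 to 3, against 38.0, 28.5 and 29.9 across mutant libraries 1 to 3, without overlap. The related inhibitor gene *Tfpi2*, not one of the 10, had a log2 fold change of -0.05 ± 0.16 (SE, edgeR adjusted p = 0.83), and its sign turned without wild type 2.

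The genes of the next steps had few counts. *F10* had 6, 22 and 26 counts across wild type libraries 1 to 3, against 16, 29 and 28 across mutant libraries 1 to 3. *F5* was at 25, 7 and 26 counts in wild type, against 39, 21 and 24 in the mutants. In both genes the groups overlapped, with the lowest value in a wild type library. The log2 fold changes of 0.62 (SE 0.63) for *F10* and 0.71 (SE 0.60) for *F5* were close in size to their standard errors. With single libraries omitted they lay between 0.21 and 1.01 for *F10* and no lower than 0.31 for *F5*. The wild type libraries varied by 59.2% for *F10* and 55.7% for *F5* (coefficient of variation). The mutant mean was 1.54-fold that of wild type for *F10*, within this spread, and 1.63-fold for *F5*, slightly beyond it. Exact 95% counting intervals of the mutant level were 107% to 223% of wild type for *F10* and 116% to 234% for *F5*. They cover counting error and not the spread between libraries.

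*F2* had 4, 9 and 2 counts across wild type libraries 1 to 3, against 0 counts in each mutant library. The wild type counts sum to 15, which is 4.40-fold above a floor of 3 counts over the mutant group. This value was 2.65-fold with wild type 2 omitted, and 2.89-fold, 2.93-fold or 2.98-fold with mutant 1, 2 or 3 omitted. The exact 95% counting interval, which also takes in the error of the wild type counts, allows a mutant level of up to 31.7% of wild type and so a smaller difference than the floor gives. Counts here are reads of amplified cDNA and not molecules, so that this interval, and those below, cover counting error only. *F2* is a minus-strand gene of chromosome 2 (91465477 to 91476571 in mm9).

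The chains of fibrinogen differed in level. *Fgb* had 113, 91.4 and 102 normalized counts across wild type libraries 1 to 3, against 3.11, 8.52 and 5.53 across mutant libraries 1 to 3. All mutant libraries were far below the wild type libraries, which varied by 10.8% (coefficient of variation). The means were 102 ± 11.1 and 5.72 ± 2.71 (n = 3), a log2 fold change of -4.13 (SE 0.46), and between -4.53 and -3.83 with single libraries omitted. Summed over its libraries, the mutant level was 5.58% of that in wild type (exact 95% counting interval 3.15% to 9.19%). The mean of *Fgb* over all 6 libraries, 53.9, is just above the minimum of 50, and the gene was no longer called without any 1 of the wild type libraries, at log2 fold changes of -4.05, -4.21 and -4.12 without wild type 1, 2 and 3.

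The partners of *Fgb* were hardly counted at all. *Fga* had 3 counts in wild type 2 and 0 in every other library, and *Fgg* had 7 counts in wild type 1 and 0 in every other library. No fold is given for *Fga*, whose counts do not exceed the floor. No fold is given for *Fgg* either, since its counts rest on wild type 1, without which both groups are at 0, and the exact 95% counting interval allows a mutant level of up to 78.8% of wild type. Per length, *Fgb* had 3.18 ± 0.34 RPKM (counts per kilobase of transcript, scaled to library size) in wild type libraries, against 0.06 ± 0.11 for *Fgg* and 0.02 ± 0.03 for *Fga*. In liver the 3 genes are known to be expressed together. In bulk samples such as these, fewer cells with a transcript and less of it per cell cannot be told apart.

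Since fibrinogen and prothrombin are liver products, hepatocyte markers were compared in the same libraries. Of 13 such genes, *Ahsg* and *Hp* were at 0 in all libraries and *Alb*, which defines hepatocytes, had 1, 6 and 0 counts across wild type libraries 1 to 3, against 0 in the mutants. The summed normalized count of the 13 genes was 14961 to 17622 for wild type against 11707 to 12394 for mutants. *Trf*, *Afp*, *Ambp* and *Ttr*, which yolk sac and gut endoderm also express, made up most of it. Of the 13 genes 7 were tested and 4 were called lower, against 5.83% of all tested genes. The list was not tested against other genes. The genes called lower were *Ambp* (log2 fold change -0.59 ± 0.09 (SE), edgeR adjusted p = 1.3e-04) and the near-identical α1-antitrypsin genes *Serpina1a* (-4.32 ± 0.25), *Serpina1b* (-2.69 ± 0.13) and *Serpina1c* (-7.12 ± 0.40, log2 fold change ± SE, each with an edgeR adjusted p of 5.8e-09 or less), between which uniquely mapping reads are divided with some uncertainty. Without the *Serpina1* genes the sums were 12715 to 14998 and 11441 to 12150. The part of cells with such transcripts in the fall of *Fgb* was not tested.

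**Figure D2:**
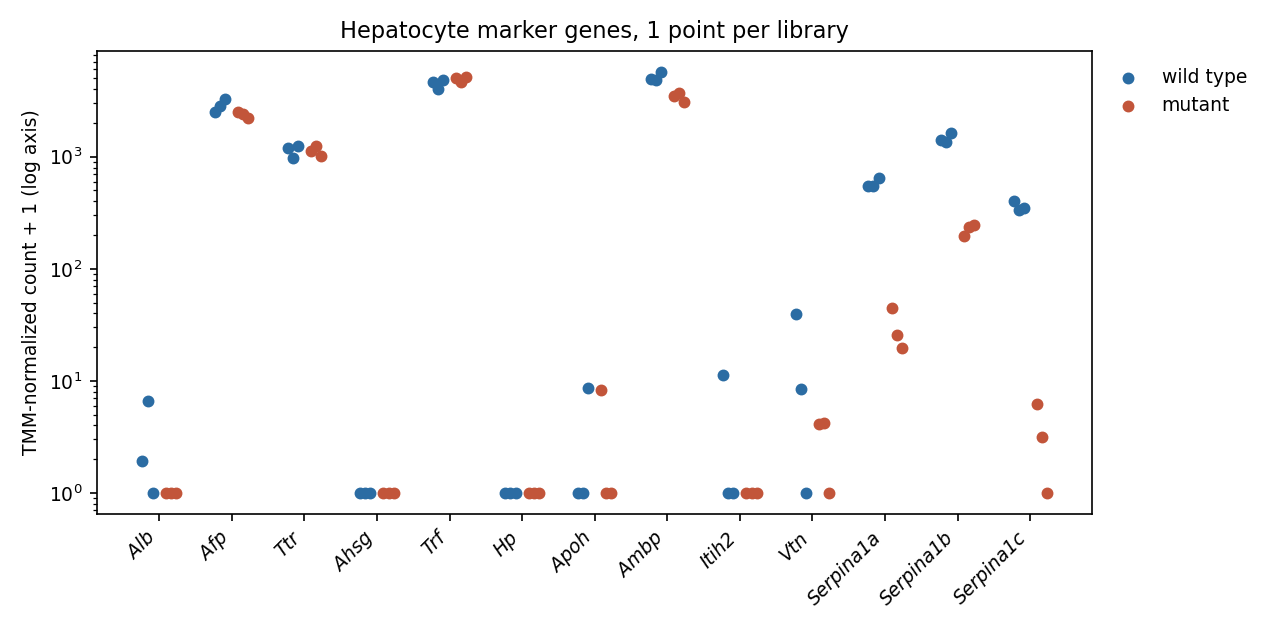
TMM-normalized counts plus 1 (y axis, log scale) of 13 hepatocyte marker genes, with 1 point for each wild type (blue) and mutant (red) library. *Alb*, *Ahsg* and *Hp* are at or near 0 counts in both groups, whereas *Serpina1a*, *Serpina1b* and *Serpina1c* are below all wild type libraries in the mutants.

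Both receptor genes fell. *F2r* (PAR1) had 690.2, 735 and 643 normalized counts across wild type libraries 1 to 3, against 237, 163 and 167 across mutant libraries 1 to 3. All mutant libraries were far below the wild type libraries, and mutant 1 was the highest of its group. The means were 689 ± 45.6 and 189 ± 41.7 (n = 3), a log2 fold change of -1.86 (SE 0.17), or 3.64-fold lower. With single libraries omitted, it ranged between -2.06 and -1.77, and *F2r* was called in each of these fits. With the minimum of 50 set on RPKM instead, as the study words it, *F2r*, *F2rl1* and *Fgb* were all not called, and 0 of the 10 genes were called lower.

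*F2rl1* (PAR2) had 306, 422 and 289.9 normalized counts across wild type libraries 1 to 3, against 116, 121 and 143 across mutant libraries 1 to 3. Wild type 2 stood above its group, and the groups did not overlap. The means were 339 ± 72.3 and 127 ± 14.1 (n = 3), a log2 fold change of -1.42 (SE 0.20), or 2.68-fold lower, and between -1.51 and -1.23 with single libraries omitted. The remaining receptor genes were silent or nearly so. *F2rl2*, the neighbour of *F2r* on chromosome 13, had 0 counts in all 6 libraries, and *F2rl3*, which encodes PAR4, had 9 counts in mutant 3 and 0 elsewhere.

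Markers of the stomach were compared too. Of 9 such genes 6 were tested, 5 of these had lower values in the mutants and 1 was called lower. Over all tested genes 5.83% were called lower. The median log2 fold change was -1.79 for the 6 genes, against -0.04 for all tested genes, and the list was not tested against other genes. Only 1 of the 6 reached the minimum mean normalized count for a call, so the others could not be called whatever their p. Of these, *Barx1*, with a mean of 18.8 over all libraries, had a log2 fold change of -4.56 ± 0.97 (SE, edgeR adjusted p = 0.0029). *Cldn18*, a tight junction gene, was the one called lower (299 ± 37.1 and 42.7 ± 15.9 normalized counts, log2 fold change -2.81 ± 0.26 (SE), edgeR adjusted p = 1.8e-06). The summed count of the 9 genes was 525 to 583 for wild type against 127 to 148 for mutants, and *Sox2* had 12, 7 and 11 counts across wild type libraries 1 to 3, against 0 in the mutants. The part of such cells in the fall of *F2r*, *F2rl1* and *Fgb* was not tested. Of 8 mesenchyme markers 4 were tested and 0 were called, against 2.78% called higher and 5.83% lower over all tested genes. The median log2 fold change of the 4 was -1.21, against -0.04 for all tested genes. Lower values in mutant libraries were found for 3 of the 4. These 3 had mean normalized counts of 11.8 to 22.7, below the minimum, so they could not be called whatever their p. *Col3a1*, a fibrillar collagen gene, had 42.2, 37.3 and 10.5 normalized counts in wild type and 8.28, 6.39 and 4.43 in mutants. *Pdgfra*, a growth factor receptor gene that was not tested, had 21.6, 5.59 and 19.96 in wild type and 0, 0 and 1.11 in mutants. Both were without overlap, as were 22.2% of all tested genes with the mutants lower. *Acta2*, a smooth muscle actin gene, had higher values in the mutants (95.3, 171 and 489, against 69.4, 105 and 87.4). The part of such cells in the fall of *F2r* was not tested. The summed normalized counts of the 8 genes, of which *Acta2* made up most in the mutants, overlapped between wild type and mutants (134 to 301 and 128 to 518), as did those of endothelial (13.1 to 28.9 and 14.4 to 37.3), platelet (3.80 to 12.2 and 2.13 to 24.3) and leukocyte markers (46.9 to 85.5 and 57.5 to 106). Those of erythroid markers were low in both groups (20.9 to 32.6 and 5.32 to 10.4), and those of pancreas markers were 201 to 209 and 224 to 260.

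Levels of different genes are compared per length, in RPKM. In wild type libraries *F3* had 67.2 ± 8.20, more than 86.1% of the tested genes that have a length. It was followed by *F2r* with 10.7 ± 0.71, *F2rl1* with 6.31 ± 1.35, *Tfpi* with 6.02 ± 0.08 and *Fgb* with 3.18 ± 0.34. *F2rl1* and *Tfpi* did not differ beyond their spread, while *F2r* was above both in every wild type library. *F10* (0.35 ± 0.21), *F5* (0.13 ± 0.07) and *F2* (0.12 ± 0.09) were far lower, and these 3 overlapped with each other.

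In the mutants the order below *F3* changed. *F3* had 173 ± 7.23 RPKM and *Tfpi* 5.46 ± 0.69, both above *F2r* (2.93 ± 0.65) and *F2rl1* (2.36 ± 0.26) in every mutant library. *F2r* and *F2rl1* overlapped in the mutants, where the ratio of *F2r* to *F2rl1* was 1.70, 1.12 and 0.97 across mutant libraries 1 to 3, against 1.88, 1.45 and 1.85 across wild type libraries 1 to 3. The ratio overlapped between the groups. *Fgb* (0.18 ± 0.08) was below *F10* (0.54 ± 0.17) in the mutants.

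**Figure D3:**
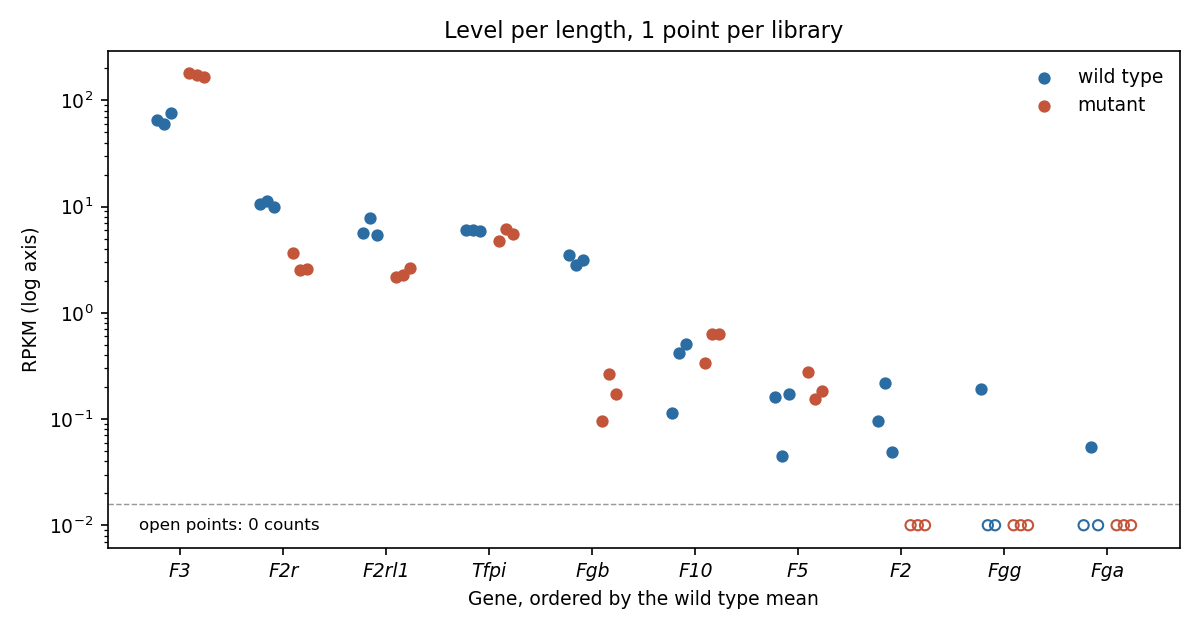
Level per length in RPKM (y axis, log scale) of the 10 genes, ordered by the wild type mean, with 1 point for each wild type (blue) and mutant (red) library and open points for libraries with 0 counts. *F3* is the highest gene in both groups, and *Tfpi* lies below *F2r* in wild type and above it in mutant libraries.

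Among the tested genes whose profile over the 6 libraries was nearest to that of *F3* were *Golt1b* and *Chn2*, at Euclidean distances of 0.17 and 0.22 between centred log2 CPM values. Among those nearest to *F2r* were *Zfp78* (0.36) and *Def6* (0.45). These distances include the difference between the groups, which all of these genes share in direction with the gene they are compared to.

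The upstream sequence of *F3*, *F2r* and *Fgb* is shown because these genes were called in the mutants of a TCF factor. Each line is the stretch of 250 bases before the start site on the gene's strand, taken from RefSeq with the build GRCm38.p6, which is not the build of the counts. It covers chr3:121723287-121723536 (plus strand) for *F3*, chr13:95618467-95618716 (minus strand) for *F2r* and chr3:83049864-83050113 (minus strand) for *Fgb*. The capitals mark the motif TGAGTCA of AP-1 factors and the short HNF1 motif GTTAAT on either strand.
F3: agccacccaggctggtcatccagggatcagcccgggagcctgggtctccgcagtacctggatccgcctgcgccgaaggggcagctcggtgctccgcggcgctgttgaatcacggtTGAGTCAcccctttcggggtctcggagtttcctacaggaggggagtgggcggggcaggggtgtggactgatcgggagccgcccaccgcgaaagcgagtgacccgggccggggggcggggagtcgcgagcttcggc
F2r: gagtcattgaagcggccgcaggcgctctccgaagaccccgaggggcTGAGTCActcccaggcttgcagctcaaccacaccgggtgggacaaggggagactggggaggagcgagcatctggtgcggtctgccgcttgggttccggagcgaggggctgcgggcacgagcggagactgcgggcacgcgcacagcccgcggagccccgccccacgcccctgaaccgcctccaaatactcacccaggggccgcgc
Fgb: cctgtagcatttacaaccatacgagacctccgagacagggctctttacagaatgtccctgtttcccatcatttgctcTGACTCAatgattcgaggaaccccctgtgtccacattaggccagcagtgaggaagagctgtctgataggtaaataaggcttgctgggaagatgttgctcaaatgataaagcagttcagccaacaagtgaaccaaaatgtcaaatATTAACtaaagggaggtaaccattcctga

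The set of RefSeq promoter stretches used here held one for 9 of the 10 genes, all but *F2rl1*. The TCF/LEF motifs CTTTGAT and CTTTGAA, searched on both strands, were in none of the 9, and they were in 3.21% and 4.46% of all 32851 promoter stretches of this length. TGAGTCA was found upstream of *F3* (135 to 129 bases before the start), *F2r* (204 to 198) and *Fgb* (173 to 167, on the other strand), against 4.46% of all stretches. It was chosen for display after the sequences had been seen, and the 3 genes that hold it did not move in the same direction. GTTAAT was upstream of *Fgb* (29 to 24 bases, on the other strand) and *Fga* (43 to 38), against 6.43% of all stretches. The upstream stretch of *Fgb* had 44.8% G and C, against 70.0% for *F3* and 70.8% for *F2r*. A match is a run of letters and not a bound site.

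Of 17 other clotting factor and cofactor genes, 7 were tested and 0 were called in either direction by edgeR or DESeq2. Over all tested genes, 2.78% were called higher and 5.83% lower by edgeR. *F8* and *Proz*, with mean normalized counts of 26.2 and 9.87, were below the minimum and could not be called whatever their p. At an unadjusted edgeR p under 0.05, 1 of the 7 genes, *Ggcx*, was lower. The share of all tested genes under that p was not computed. The median log2 fold change of the 7 genes was 0.04, against -0.04 for all tested genes. The factor genes *F7*, *F9*, *F11*, *F13b*, *Kng1* and *Kng2* had 0 counts in all 6 libraries, so that the binding partner of tissue factor was not detected in this epithelium. *Ggcx*, which encodes the carboxylase that clotting factors need, had 289.96 ± 35.8 and 211 ± 10.1 normalized counts (log2 fold change -0.46 ± 0.18 (SE), edgeR adjusted p = 0.063). The largest difference in size was that of *Proz*, which encodes protein Z, at very low counts (log2 fold change 1.08 ± 0.78 (SE), edgeR adjusted p = 0.32).

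Of the 10 genes listed as natural anticoagulants, 5 were tested and 0 were called by edgeR or DESeq2. Over all tested genes, 2.78% were called higher and 5.83% lower. An unadjusted edgeR p under 0.05 was reached by 3 of the 5, with lower values in mutant libraries. The share of all tested genes under that p was not computed, and the list was not tested against other genes. The list's median log2 fold change was -0.63, against -0.04 for all tested genes. This is the value of *Pros1*, which encodes protein S (-0.63 ± 0.22 (SE), edgeR adjusted p = 0.042). *Proc*, which encodes protein C, had 50, 27 and 31 counts across wild type libraries 1 to 3, against 14, 2 and 2 across mutant libraries 1 to 3 (log2 fold change -2.39 ± 0.74 (SE), edgeR adjusted p = 0.024), and the groups did not overlap. *Proc* and *Serpina10*, with mean normalized counts of 20.1 and 37.9, were below the minimum and could not be called whatever their p. Without mutant 1 the log2 fold change of *Proc* was -3.89 (edgeR adjusted p = 0.0077). *Gas6*, a vitamin K-dependent ligand related to protein S, is counted in this list but is not itself an anticoagulant. The gene was not called (log2 fold change -0.92 ± 0.33 (SE), edgeR adjusted p = 0.048). It was called lower without mutant 1 (-1.46, adjusted p = 0.0060) and with no filter on low counts (-0.92, adjusted p = 0.0090), whereas it was -0.59 (adjusted p = 0.17) without mutant 2 and -0.70 (adjusted p = 0.20) without wild type 1. *Serpina5* had 0 counts in all libraries.

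Fibrinolysis is the breakdown of fibrin by plasmin. Of 12 genes, 8 were tested, 3 were called higher and 2 lower, with a median log2 fold change of -0.21. Over all tested genes, 2.78% were called higher and 5.83% lower, and the list was not tested against other genes. All 5, like the genes called in the next lists, also stand in the study's own gene tables, which were made from these libraries and are no independent evidence of direction. *Plaur*, the receptor of urokinase, was upregulated, with 763 ± 63.6 in wild type against 1258 ± 97.1 normalized counts in mutants (mean ± SD, n = 3, as for the genes that follow; log2 fold change 0.72 ± 0.11 (SE), edgeR adjusted p = 2.1e-04). *Plat*, which encodes tissue plasminogen activator, was upregulated, with 340.2 ± 10.9 in wild type against 548 ± 70.2 in mutants (log2 fold change 0.69 ± 0.15 (SE), edgeR adjusted p = 0.0027). *S100a10*, whose protein binds plasminogen at the cell surface together with annexin A2, was upregulated, with 3552 ± 193 in wild type against 5108 ± 212 in mutants (log2 fold change 0.52 ± 0.07 (SE), edgeR adjusted p = 9.0e-05).

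The 2 genes that fell encode inhibitors. *Serpinf2*, the gene of α2-antiplasmin, had 702 ± 43.0 normalized counts in wild type against 368 ± 23.8 in mutants (log2 fold change -0.93 ± 0.13 (SE), edgeR adjusted p = 1.1e-04), and *Serpine2*, the gene of protease nexin 1, which inhibits thrombin and plasminogen activators, had 1580 ± 175 against 952 ± 160.3 (log2 fold change -0.73 ± 0.12 (SE), edgeR adjusted p = 5.4e-04). *Plg*, the gene of plasminogen itself, had 99.8 ± 39.1 and 80.1 ± 12.2 (log2 fold change -0.32 ± 0.32 (SE), edgeR adjusted p = 0.49), and its sign turned without wild type 1. *Hrg* and *Serpinb2* had 0 counts, and *Plau*, the gene of urokinase, had 5 counts in mutant 3 alone. The call of *Plat* was lost when scaled by library size alone (log2 fold change 0.58, adjusted p = 0.011), without mutant 1 (0.58, adjusted p = 0.022) and without wild type 1 (0.68, adjusted p = 0.013). That of *S100a10* was lost when scaled by library size alone (0.42), with a correction for gene length (0.17), without mutant 2 (0.490) and without wild type 1 (0.492).

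Of 14 genes of the other PARs and of PAR signalling, 12 were tested, 0 were called higher and 2 lower, with a median log2 fold change of -0.27. Over all tested genes, 2.78% were called higher and 5.83% lower, with a median of -0.04, and the list was not tested against other genes. *Gna12*, which encodes a G protein subunit that couples to receptors such as PAR1, was downregulated, with 386 ± 27.6 in wild type against 175 ± 35.9 normalized counts in mutants (log2 fold change -1.14 ± 0.19 (SE), edgeR adjusted p = 4.2e-04). *Arhgef1*, the gene of an exchange factor that acts downstream of this subunit, was downregulated, with 1476 ± 294 in wild type against 870.2 ± 99.1 in mutants (log2 fold change -0.76 ± 0.14 (SE), edgeR adjusted p = 8.2e-04). *Gna11*, a subunit that couples to phospholipase C, was higher by less than the minimum fold (log2 fold change 0.30 ± 0.07 (SE), edgeR adjusted p = 0.0034). The remaining 9 tested genes, among them *Gnaq*, *Gna13*, *Rhoa* and *Arrb2*, were not called and had adjusted p values above 0.1.

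Of 9 genes of membrane-anchored proteases and their inhibitors, which act in epithelia where PAR2 is found, 8 were tested. Of these 0 were called higher and 1 lower, against 2.78% and 5.83% of all tested genes. *St14*, which encodes matriptase, a protease that can cut PAR2, had 1572, 1642 and 973 normalized counts across wild type libraries 1 to 3, against 812, 540 and 820 across mutant libraries 1 to 3 (log2 fold change -0.95 ± 0.18 (SE), edgeR adjusted p = 0.0014). The call was lost without wild type 1 (-0.85, adjusted p = 0.0101) and without wild type 2 (-0.81, adjusted p = 0.0118). *Prss8*, the gene of prostasin, was lower by less than the minimum fold (log2 fold change -0.46 ± 0.09 (SE), edgeR adjusted p = 0.0019). It was called when scaled by library size alone (-0.57), with a correction for gene length (-0.59) and without mutant 2 (-0.50). The inhibitor genes *Spint1* and *Spint2* had log2 fold changes of 0.18 (SE 0.07, adjusted p = 0.063) and 0.13 (SE 0.06, adjusted p = 0.12).

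**Figure D4:**
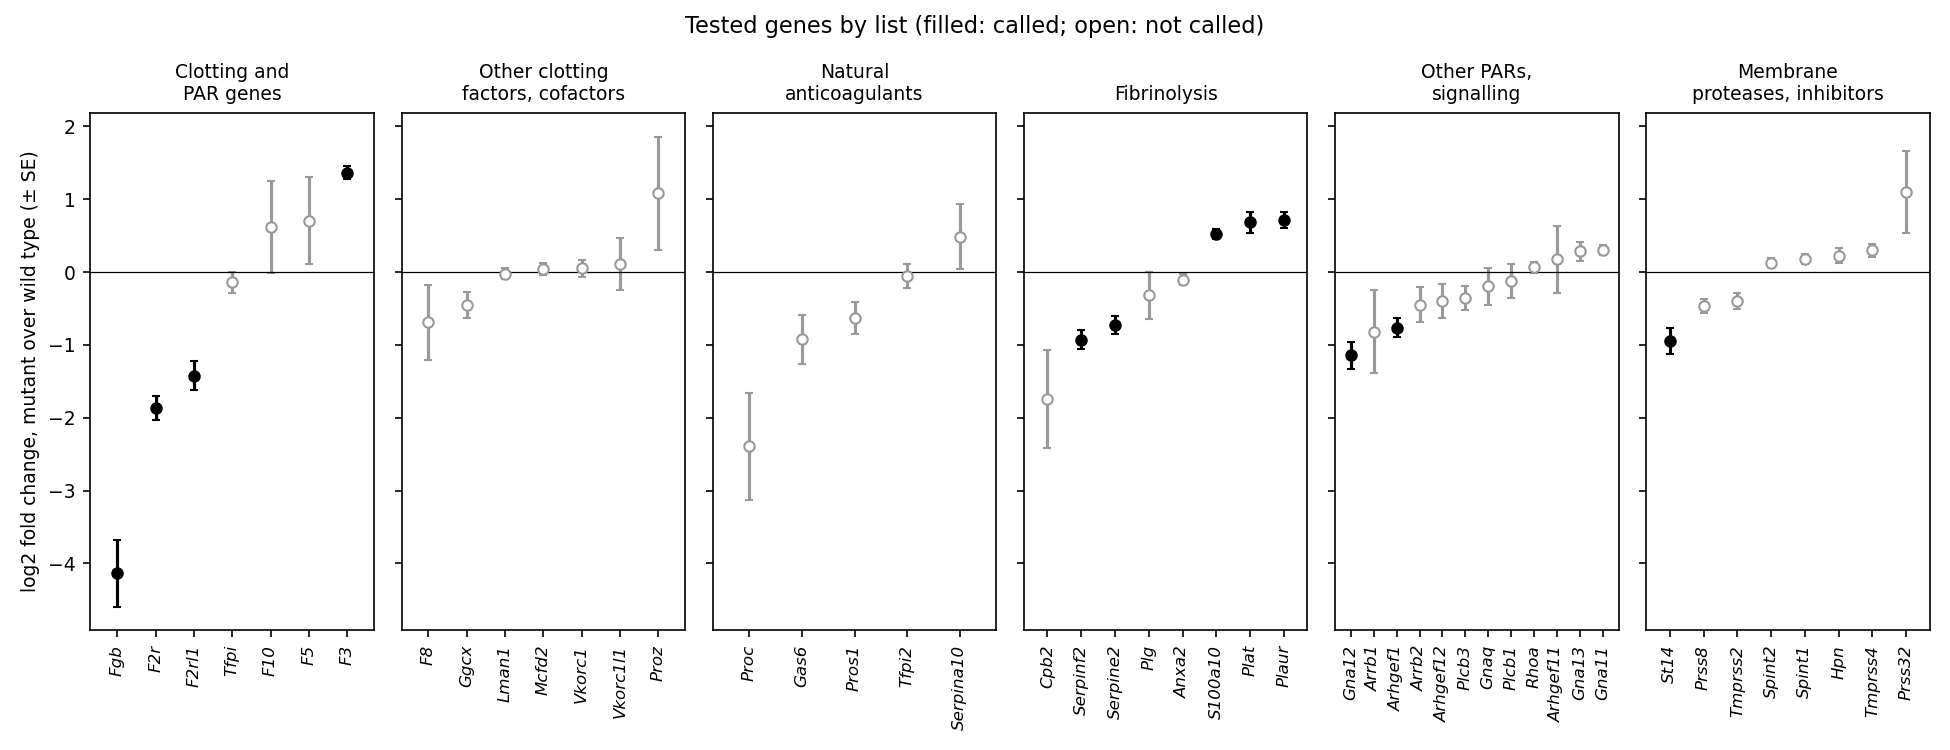
Log2 fold change of mutant over wild type libraries ± SE (y axis) for the tested genes of 6 lists, ordered by value within each list, with filled points for called and open points for other genes. *Fgb*, *F2r* and *F2rl1* are the lowest of the first list and *F3* its highest, and in the fibrinolysis list *Plaur*, *Plat* and *S100a10* are above 0.5 and *Serpinf2* and *Serpine2* below -0.5.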

How the data were processed

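RNA-sequencing was performed by the authors on 6 libraries of EpCAM-positive epithelial cells, with cDNA amplified for 15 PCR cycles. Per the labels and the study's methods, reads were mapped with STAR 2.5.2b to mm9 and uniquely mapping reads were counted per gene with featureCounts 1.5.1. The authors deposited these raw read counts, without normalization. Whether strand was used in counting, and the sex, litter and background of the embryos, are not given in the sources used here.

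Counts were normalized by TMM (factors of 0.957 to 1.06), filtered with filterByExpr and tested with edgeR 4.0.16 in R 4.3.3, by the quasi-likelihood test, and p-values were adjusted (Benjamini-Hochberg) over the 12501 genes kept. The study states its level minimum as an RPKM of 50. Here 50 was applied to the mean normalized count, and the RPKM version was an alternative. RPKM uses the longest protein-coding transcript of an mm9 annotation, which gave a length for 11874 tested genes. BLAST+ 2.17.0 was used to look for near-identical transcripts, taken as 95% identity or more across 50% or more of the length. The script was tested on simulated data. The libraries are named as biological replicates, without saying whether each is 1 embryo or a pool, and the p-values measure the spread between them. Pairs of libraries within a group differed by more than sampling noise (chi-square per gene of 6.34 to 18.6), so none was a repeated deposit of another, which does not show that they are independent. The upper values were those of wild type 3 with wild type 1 (16.6) and wild type 2 (18.6), against 8.62 between wild type 1 and 2. Wild type 3 was also the wild type library nearest to each mutant (30.5, 33.8 and 29.2 for mutants 1 to 3).

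The 10 genes, the lists and the motifs were chosen with earlier results of these data known. The 8 called genes of the lists on fibrinolysis, PAR signalling and membrane proteases are all in the study's tables, so the calls are not independent of it. The named genes are, in each list, up to 6 called genes or else the one with the largest change, genes at 0, and some others chosen after their values were seen. For *F3* and *F2r* the 3 genes with the nearest profile were sought, of which 1 each is not reported here. Each result was recomputed with DESeq2 1.42.0, with RLE normalization or library size alone, with other filters (none, or a mean count of 50) and other call criteria, after a gene-length correction by loess of span 0.5, with the replicate number as a block, and leaving out single libraries. Figures were drawn with matplotlib 3.10.9 in Python 3.11.15.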

Additional observations from a re-analysis of the deposited data

How the results depend on the processing

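The 7 tested genes gave 89 values over the alternative fits, and 86 of these kept their direction and call. The 3 exceptions are those of *Fgb* without each wild type library, where its mean normalized count fell under 50. *F5* and *F10*, with 12 of the values each, lay below this minimum throughout. For them only the direction could change, not the call. The log2 fold change of *Fgb* lay between -4.53 and -3.83 with each library left out in turn. When the minimum of 50 was set on RPKM, 0 of the genes were called lower and *F3* was still called. With each library left out, 405 to 867 genes were called lower over the whole table, against 729, and 260 to 516 higher, against 348. Both upper values were those without wild type 3. With library size as the only scaling, the median log2 fold change moved by -0.11, 200 genes were called higher and 17.3% of the calls were higher, against 32.3%. The number called higher was 902 with no minimum fold change and 128 with an RPKM of at least 50, where 30 were called lower.

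For the lists, library size alone gave 1 fibrinolysis gene called higher and 3 membrane protease genes lower. The gene-length correction gave 2 membrane protease genes lower, and no filter gave 1 gene of the anticoagulant list lower, *Gas6*. With no minimum fold change, 1 PAR signalling gene was called higher and 2 membrane protease genes lower. With an RPKM of at least 50 the fibrinolysis list had 1 higher and 0 lower, and the PAR signalling and membrane protease lists had 0 lower. With each library left out, the fibrinolysis list had 1 to 3 higher, the anticoagulant list 0 to 1 lower, the PAR signalling list 2 to 3 lower and the membrane protease list 0 to 2 lower.

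Directions that turned were those of genes that were not called. With library size alone these were *Vkorc1* (-0.0536), *Mcfd2* (-0.0632) and *Rhoa* (-0.0386), and with the gene-length correction *Vkorc1* (-0.287), *Mcfd2* (-0.0547), *Rhoa* (-0.0126), *Spint2* (-0.0706) and *Lman1* (0.0494). *Lman1* also turned with DESeq2 (0.0019) and RLE normalization (7.0e-04). With single libraries left out the values of turned genes ranged from -0.0271 to 0.159 for *Vkorc1*, -0.109 to 0.425 for *Vkorc1l1*, -0.0175 to 0.0858 for *Mcfd2*, -0.0886 to 0.0304 for *Lman1*, -0.123 to 0.0784 for *Tfpi2*, -0.547 to 0.0130 for *Plg*, -0.379 to 0.0038 for *Gnaq* and -0.289 to 0.684 for *Arhgef11*. The cause was not tested.

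Same-numbered libraries did not deviate together (correlations of -0.04 to 0.0097, against -0.02 to 0.04 for other pairs), so the numbers do not pair the libraries. With the replicate number as a block, 339 genes were called higher and 691 lower, and no call among the 10 genes changed. The values of *F2*, *F5*, *F10*, *Fga* and *Fgg* rest on at most 39 counts in any library, and whether depth, cell number or variation between embryos sets their spread was not tested.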
